A study of Mus musculus with 6 samples.

Results

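The 36 genes described here supply T cells with amino acids and one-carbon units or belong to the programme of the transcription factor ATF4. They were listed by name, with earlier results of these data known. The list holds the enzymes of serine, cysteine, asparagine, proline, aspartate and polyamine synthesis and the folate one-carbon enzymes. It also holds amino acid carriers, ATF4 with several of its targets, and Tfrc, the transferrin receptor. A probe set on the array named 35 of the 36, out of 18193 genes in all. Pycr1 was not analysed here. Each gene was read from its brightest probe set, and 25 of the 35 had more than 1.

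A T cell that leaves rest has to build protein, nucleotides and membrane, and for this it imports amino acids and makes serine from a glycolytic intermediate. Serine hydroxymethyltransferases pass a carbon of serine to folate, and the folate enzymes hand it on to purine and thymidylate synthesis. ATF4 is the effector of the integrated stress response, which kinases start by phosphorylating eIF2α when amino acids are short or the endoplasmic reticulum is stressed. It binds, as a dimer with C/EBP proteins, to composite elements near asparagine synthetase, amino acid carriers and feedback genes such as Trib3 and Chac1. In proliferating cells ATF4 is also raised through mTORC1.

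The arrays asked how loss of Furin, a proprotein convertase, alters CD4 T cells. All mice were C57BL/6 carrying Fur flox/flox alleles, aged 10 to 11 weeks. Controls had no Cre; conditional knockout (cKO) mice also carried CD4 cre, a Cre under the Cd4 promoter, which acts in T cells from the thymus onwards. The activated population started as naive CD62L+ CD44- cells and was stimulated for 2 days on plate-bound anti-CD3 and anti-CD28, each at 5 µg/ml. Memory cells (CD62L- CD44+) and regulatory cells (CD25+ FoxP3+) were taken fresh by sorting. Each of the 6 combinations of population and genotype is 1 array of total RNA, and the labels do not say how many mice each held.

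Foxp3, and Furin on the memory arrays, went against the labels, while other regulatory T cell markers followed them only in part. Memory and regulatory below mean the arrays so labelled. Foxp3, the factor that defines regulatory T cells, read 1358.2 and 1116.4 on the control and cKO arrays labelled memory, 50.4 and 33.8 on those labelled regulatory, with 27.0 and 11.9 in activated cells. This was its only probe set. Il2ra, which encodes CD25, was brightest on the regulatory arrays (4276.9 and 3702.1), as was Ikzf2 (13900.9 and 15968.2). Ikzf2 was also bright on the memory arrays (9418.9 and 8212.6), against 582.4 and 442.0 in activated cells. Ctla4 read 11033.1 and 10619.1 on the regulatory arrays, 11924.6 and 10316.5 in activated cells and 3339.9 and 2934.0 in memory cells. Furin itself read 2202.9 on the memory array labelled cKO against 647.4 in its control, and was somewhat lower on the cKO array in activated cells (468.3 against 515.8) and in regulatory cells (410.0 against 547.2). Whether its probe set lies within the deleted stretch was not given. T cell markers were present on all 6 arrays: Cd3d ranged from 6852.4 to 38861.5 and Cd4 from 1821.4 to 3767.7. Probe sets that reached the signal floor of 47.6 made up 49.4% and 49.8% of the activated arrays and 62.6% to 67.4% of the other 4. The number of arrays limits the precision of every value below.

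Composite C/EBP-ATF elements were looked for first, because ATF4 acts through them. The core TGATGNAA was searched on both strands of the 300 bases around the start of each gene (RefSeq, build GRCm38.p6, 250 bases before to 50 after). It was found in 8 of the 35 promoters listed for 31 of the genes (22.9%), and in 1304 of all 32851 promoters in that table (3.97%). Several genes were listed because they are ATF4 targets, so the gap between these shares is not a test. Cth, Slc1a5, Slc38a1, Slc7a3 and Slc7a5 had no entry. The 8 genes were Asns, Chac1, Got1, Nupr1, Pycr1, Slc1a4, Slc7a11 and Trib3. The stretches below show the measured ones, 5′ to 3′ on the gene's own strand with the core in capitals, since these genes behaved differently from one another on the arrays. A match is a description of the letters and not a measured site.
Asns: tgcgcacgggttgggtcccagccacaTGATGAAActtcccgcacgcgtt
Got1: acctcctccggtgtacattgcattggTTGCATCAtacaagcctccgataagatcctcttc
Chac1: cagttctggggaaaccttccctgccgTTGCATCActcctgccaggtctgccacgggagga
Slc1a4: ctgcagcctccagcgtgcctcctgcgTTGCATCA
Trib3: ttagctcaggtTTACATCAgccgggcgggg
Slc7a11: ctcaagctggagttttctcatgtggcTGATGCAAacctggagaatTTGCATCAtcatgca
Nupr1: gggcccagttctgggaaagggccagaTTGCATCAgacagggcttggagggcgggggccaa

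These lie at chr6:7693210-7693258 (Asns, minus strand), chr19:43524674-43524733 (Got1, minus), chr2:119351023-119351082 (Chac1, plus), chr11:20332710-20332743 (Slc1a4, minus), chr2:152344028-152344057 (Trib3, minus), chr3:50443646-50443705 (Slc7a11, minus) and chr7:126625547-126625606 (Nupr1, minus). The core began 23 bases upstream of the start in Asns, 4 in Slc1a4, 102 in Got1 and 193 in Chac1, and lay downstream of the start in Trib3. Slc7a11 alone among them held the core 2 times, once on each strand. The E-box CACGTG, the core bound by MYC and related factors, was in 4 of the 35 promoters (11.4%; Aldh18a1, Ass1, Cbs and Nupr1) against 7.15% of all promoters, and overlapped no C/EBP-ATF core.

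Most of the genes were brighter in activated cells. Against memory cells 24 of 35 were higher in activated cells, 1 was lower and 10 did not pass (limma, adjusted p under 0.05). In the same contrast 17.4% of all 15808 genes tested were higher and 27.0% were lower, 44.4% in all. Against regulatory cells 22 of 35 were higher, 2 were lower and 11 did not pass, with 18.1% of all genes higher and 26.5% lower, 44.7% in all. The median log2 difference of the genes was 1.15 in both contrasts, against -0.21 and -0.23 over all genes tested. Both contrasts use the same activated arrays, so they are not independent of each other.

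Each population enters these contrasts with a pair of arrays, 1 of each genotype. The error is thus the spread left after genotype is allowed for, with 2 residual degrees of freedom. Leaving out an array lowers these to 1 for every gene fitted. The share of all genes still called then is not given here, so such losses cannot be read as particular to the described genes. Leaving out either regulatory array brought the 24 calls against regulatory cells to 0, although 19 (without the cKO array) and 18 (without the control array) genes still had an unadjusted p under 0.05. Leaving out any 1 array left 12 to 15 of the 25 calls against memory cells. Other between-array scalings move the median of all genes to 0.00 and the share of higher among all calls from 39.1% to 51.5% (quantile) or 52.6% (cyclic loess) against memory cells, and from 40.6% to 55.2% or 56.5% against regulatory cells. No called gene changed direction under them. Under the 8 alternative settings that keep all 6 arrays, 12 of the 25 calls against memory cells held in every one (Asns, Atf4, Cth, Ddit3, Got1, Mthfd1, Mthfd2, Odc1, Psat1, Shmt1, Slc7a5 and Tfrc). Against regulatory cells these and Mthfd1l did, 13 of 24, and each of the other calls was lost in at least 1 setting.

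Markers of dividing cells moved in the same direction as these genes. Summed over the 7 of 8 that have a probe set, they came to 48158.2 and 48561.6 in activated cells, 4191.1 and 21125.3 in memory cells and 4177.2 and 9092.5 in regulatory cells. Markers of other blood cells moved the other way, and so did T cell markers. The T cell sum (4 of 6 markers) was 16089.5 and 15150.2 in activated cells and 50191.3 to 72097.1 on the other 4 arrays. The B cell sum (5 of 6 markers) was 119.1 and 166.8 in activated cells and 1791.8 to 3688.8 on the other 4 arrays. Myeloid and dendritic markers (9 of 9) summed to 650.2 and 632.2 in activated cells and to between 1880.4 and 14851.2 elsewhere. Their part in the differences was not tested, and in bulk RNA fewer cells of a type and less RNA per cell cannot be told apart. Array quality measures moved with the contrast as well. The bioB hybridisation spike read 753.8 and 852.3 on the activated arrays and between 2213 and 4930 on the other 4, and the actin 3′ to 5′ signal ratio was 1.22 and 1.24 against 1.35 to 1.93. Whether they bear on the differences was not tested. Activation, culture and the naive starting cell came together in this design and cannot be told apart either. No array held naive cells without stimulation.

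**Figure D1:**
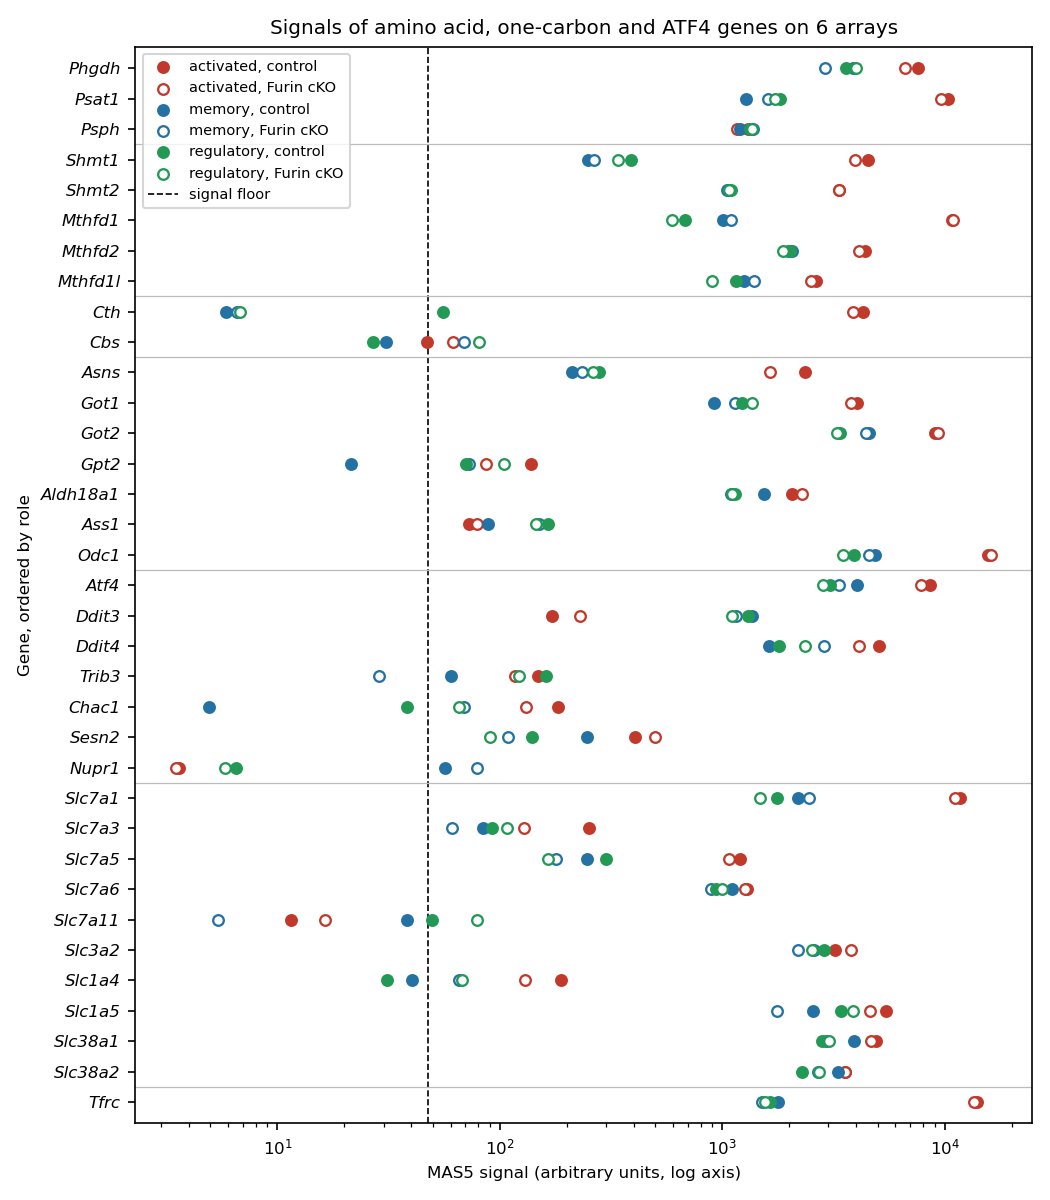
MAS5 signal (arbitrary units, log axis) of the 35 genes on each of the 6 arrays, ordered by role. Filled points are control arrays, open points cKO arrays, and the dashed line is the signal floor of 47.6. The red activated points lie to the right of the others for most genes, with the widest gap in Cth, and to the left for Ddit3, Ass1 and, below the floor, Nupr1. For Psph all 6 points lie close together.

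The serine synthesis pathway did not move as a block. Phgdh, which commits 3-phosphoglycerate to serine, read 7536.9 and 6611.6 in activated cells (control first here and throughout), 3879.3 and 2893.5 in memory cells and 3586.3 and 3992.1 in regulatory cells. It was 2.11-fold higher in activated than in memory cells (log2 difference 1.08, SE 0.19, adjusted p = 0.0145) and 1.87-fold higher than in regulatory cells (adjusted p = 0.0238). Of the 3 other Phgdh probe sets, 2 gave wider gaps (log2 2.01 from memory and 1.65 from regulatory cells for the brighter of them) and the third much the same (1.05 and 0.65). Psat1 encodes the transaminase that follows. Its signals were 10376.9 and 9578.9 in activated cells, 1271.2 and 1605.5 in memory cells and 1824.5 and 1729.7 in regulatory cells, a 6.98-fold difference from memory (log2 2.80, SE 0.18, adjusted p = 0.00203) and a 5.61-fold one from regulatory cells (adjusted p = 0.0024). A second Psat1 probe set gave log2 differences of 3.80 from memory and 3.68 from regulatory cells. Psph, the phosphatase that releases serine, stayed between 1158.1 and 1376.4 on all 6 arrays. Its log2 difference from memory cells was -0.07 (95% interval -0.50 to 0.36) and from regulatory cells -0.13 (-0.56 to 0.30), so a change as large as that of Phgdh against memory cells lies outside both intervals.

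All 5 folate one-carbon enzymes rose in activated cells against both other populations. The cytosolic pair had the widest gaps. Shmt1, which moves the serine carbon to folate in the cytosol, read 4505.3 and 3930.9 in activated cells, 248.8 and 264.0 in memory cells and 390.0 and 339.9 in regulatory cells. That is 16.4-fold above memory (log2 4.04, SE 0.15, adjusted p = 0.00181) and 11.6-fold above regulatory cells (log2 3.53, adjusted p = 0.00184). Its other probe sets that reached the floor on every array gave narrower gaps, log2 3.03 and 3.02 from memory and 1.97 and 2.69 from regulatory cells. A further probe set, below the floor in memory cells (16.9 and 14.4), gave at least 4.05 from memory and at least 3.16 from regulatory cells. Mthfd1, the trifunctional cytosolic enzyme that makes formyl-folate for purines, read 10770.3 and 10932.3 in activated cells. Memory cells gave 1005.0 and 1093.6 and regulatory cells 681.0 and 596.6, which gave 10.4-fold (adjusted p = 0.00183) and 17.0-fold differences (adjusted p = 0.00175). No array of the activated population overlapped the other 4 for either gene.

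The mitochondrial counterparts had smaller gaps. Shmt2 read 3357.0 and 3338.1 in activated cells and between 1053.0 and 1093.7 on the other 4 arrays, 3.16-fold above memory (adjusted p = 0.00252) and 3.10-fold above regulatory cells (adjusted p = 0.00273). It is 1 of 4 probe sets for this gene; 2 dimmer ones gave differences of -0.03 and -0.20 from memory cells, and averaging all 4 ended both calls. Mthfd2, the mitochondrial dehydrogenase that is scarce in most resting adult cells, read 4388.6 and 4096.3 in activated cells and 1879.6 to 2063.1 on the memory and regulatory arrays, a 2.10-fold and a 2.18-fold difference (adjusted p = 0.00649 and 0.00602). A second Mthfd2 probe set gave wider gaps, log2 1.92 and 2.43, with 5620.1 and 4961.3 in activated cells and 973.7 to 1683.5 elsewhere. Mthfd1l, which releases formate from mitochondria, read 2628.2 and 2498.7 in activated cells. It was 1.94-fold above memory (1249.4 and 1391.3, adjusted p = 0.0165) and 2.51-fold above regulatory cells (1153.7 and 902.7, adjusted p = 0.00745).

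Cth had the largest difference of the 35 in both contrasts. It encodes cystathionine gamma-lyase, which releases cysteine from cystathionine. Its signals were 4305.3 and 3869.9 in activated cells, 5.9 and 6.6 in memory cells and 55.3 and 6.8 in regulatory cells, so only the regulatory control array exceeded the floor among those 4. The difference was at least 85.8-fold from memory (adjusted p = 0.00167) and at least 79.6-fold from regulatory cells (adjusted p = 0.00175), both against signals raised to the floor. Cbs, which makes cystathionine in the step before, stayed near the floor everywhere, from 26.9 to 80.2, and passed in neither contrast.

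Of the 7 other amino acid and polyamine enzymes, 5 rose against both populations. Asns, which makes asparagine from aspartate and glutamine, read 2347.7 and 1642.6 in activated cells, 210.1 and 234.0 in memory cells and 279.5 and 262.1 in regulatory cells. The differences were 8.86-fold (log2 3.15, SE 0.21, adjusted p = 0.00205) and 7.26-fold (adjusted p = 0.00247). Odc1, the first enzyme of polyamine synthesis, read 15616.3 and 16167.6 in activated cells and 3486.5 to 4843.1 elsewhere, 3.37-fold above memory (adjusted p = 0.00257) and 4.31-fold above regulatory cells (adjusted p = 0.00219). Its other 2 probe sets gave log2 differences of 2.66 and 1.45 from memory and 3.15 and 1.59 from regulatory cells.

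The aspartate aminotransferases both rose. Got1, the cytosolic form, was at 4026.0 and 3803.7 in activated cells and from 917.5 to 1363.0 elsewhere, 3.83-fold above memory (adjusted p = 0.0027) and 3.03-fold above regulatory cells (adjusted p = 0.004). Got2, the mitochondrial form, was at 9005.8 and 9328.1 against 3274.0 to 4583.8, 2.03-fold and 2.76-fold higher (adjusted p = 0.00666 and 0.00332). Aldh18a1, the first enzyme of proline synthesis from glutamate, was 1.67-fold and 1.93-fold higher (2049.6 and 2286.6 in activated cells, 1097.4 to 1533.4 elsewhere, adjusted p = 0.0482 and 0.0248). Averaging all probe sets of Got2 or Aldh18a1 ended these calls.

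Ass1 and Gpt2 did not share the pattern. Ass1, which makes argininosuccinate on the way to arginine, read 72.9 and 78.9 in activated cells, 88.1 and 149.5 in memory cells and 165.0 and 145.0 in regulatory cells. It was 2.04-fold lower in activated than in regulatory cells (adjusted p = 0.0407), a call that either other normalization and every other floor ended, and did not pass against memory cells (log2 -0.60, adjusted p = 0.156). Gpt2, the mitochondrial alanine aminotransferase, ranged from 21.4 to 137.4 and passed in neither contrast.

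Among ATF4 and its stress targets the directions were mixed. Atf4 itself read 8600.9 and 7816.0 in activated cells, 4044.2 and 3359.3 in memory cells and 3054.7 and 2831.8 in regulatory cells, 2.22-fold (log2 1.15, SE 0.14, adjusted p = 0.00535) and 2.79-fold higher (adjusted p = 0.0034). Its protein is controlled mainly at translation, which arrays do not measure. Ddit3 encodes CHOP, the factor associated with unresolved endoplasmic reticulum stress, and was the gene that fell in both contrasts. It read 171.4 and 229.1 in activated cells, 1360.3 and 1156.1 in memory cells and 1300.4 and 1109.9 in regulatory cells. The fall was 6.33-fold from memory (limma, log2 -2.66, SE 0.22, adjusted p = 0.00271) and 6.06-fold from regulatory cells (adjusted p = 0.00299). A dimmer Ddit3 probe set fell less, with log2 differences of -1.42 from memory and -0.90 from regulatory cells. The activated and the other arrays did not overlap for Atf4 or Ddit3.

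Ddit4 and Sesn2 both encode inhibitors of mTORC1. Ddit4 read 5063.5 and 4114.6 in activated cells, 1614.7 and 2858.3 in memory cells and 1800.8 and 2341.7 in regulatory cells, 2.12-fold and 2.22-fold higher (adjusted p = 0.0484 and 0.0414). These calls are near the threshold, and quantile normalization ended both. Sesn2 read 404.7 and 499.4 in activated cells, 245.5 and 108.6 in memory cells and 139.8 and 90.0 in regulatory cells, 2.75-fold and 4.01-fold higher (adjusted p = 0.0415 and 0.0178). Its arrays did not overlap between activated cells and the other populations, but the memory pair differed widely by genotype, and the call against memory cells ended without a genotype term.

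Chac1, Trib3 and Nupr1 were dim. Chac1, an enzyme that breaks down glutathione, read 181.6 and 130.8 in activated cells and from 4.9 to 68.8 elsewhere, at least 2.69-fold above memory (adjusted p = 0.0227) and at least 2.76-fold above regulatory cells (adjusted p = 0.0215). Trib3, a pseudokinase that feeds back on ATF4, read 148.4 and 116.9 in activated cells, 60 and 28.6 in memory cells and 160.5 and 122.1 in regulatory cells. It was at least 2.46-fold higher in activated than in memory cells (adjusted p = 0.00382) and did not pass against regulatory cells (log2 -0.09, adjusted p = 0.649). A second Trib3 probe set read 112.2 and 61.4 in activated, 53.4 and 124.2 in memory and 91.9 and 163.2 in regulatory cells. Its log2 difference from memory cells was 0.03, and using it ended the call. Nupr1, a small stress-induced chromatin protein, was below the floor on the activated and regulatory arrays (3.5 to 6.5) and at 56.7 and 78.9 in memory cells, and passed in no contrast.

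The carriers also divided. Slc7a1, the arginine and lysine carrier, read 11748.5 and 11065.0 in activated cells, 2183.0 and 2453.8 in memory cells and 1765.7 and 1478.5 in regulatory cells. Its differences were 4.93-fold (limma, adjusted p = 0.0022) and 7.06-fold (adjusted p = 0.00207). A further probe set, above the floor on every array, gave far smaller log2 differences, 0.23 from memory and 0.17 from regulatory cells. A dim probe set ran the other way (log2 -0.64 from memory cells), and averaging the probe sets ended both calls. Slc7a5, the light chain of the large neutral amino acid exchanger, read 1203.9 and 1071.7 in activated cells. Memory cells gave 245.2 and 179.6 and regulatory cells 301.4 and 164.2. Slc7a5 RNA was thus 5.41-fold (limma, log2 2.44, SE 0.22, adjusted p = 0.00297) and 5.11-fold higher in activated cells (adjusted p = 0.00333).

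Slc3a2 encodes CD98, the heavy chain that carries Slc7a5 and its relatives to the membrane, and its gap was far smaller. It read 3201.0 and 3783.1 in activated cells, 2591.9 and 2177.0 in memory cells and 2870.5 and 2534.0 in regulatory cells, with log2 differences of 0.55 (95% interval 0.05 to 1.05, adjusted p = 0.0773) and 0.37 (-0.13 to 0.87, adjusted p = 0.191). Slc7a6, another partner of CD98, stayed between 886.3 and 1288.8 on the probe set used and did not pass. Its second probe set read 1621.0 and 1652.2 in activated cells and 631.1 to 996.1 elsewhere (log2 1.23 and 0.77), and with both averaged the gene was higher than in memory cells (log2 0.80, adjusted p = 0.0255). Slc7a11, which brings in cystine, exceeded the floor on the regulatory arrays only (49.3 and 78.6) and did not pass. Slc7a3, a second cationic carrier, read 252.6 and 128.9 in activated cells and 60.8 to 108.1 elsewhere, 2.53-fold above memory (adjusted p = 0.0317) and not past the threshold against regulatory cells (adjusted p = 0.1).

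The neutral amino acid carriers differed from one another. Slc1a5, which imports glutamine, read 5428.2 and 4602.4 in activated cells, 2557.8 and 1766.4 in memory cells and 3427.3 and 3854.0 in regulatory cells. It was 2.35-fold above memory (adjusted p = 0.0136; not passed when its probe sets are averaged), and its 1.38-fold difference from regulatory cells did not pass (adjusted p = 0.167). Slc1a4, its relative for alanine, serine and cysteine, read 188.2 and 129.3 in activated cells and 31.2 to 67.5 elsewhere, at least 2.80-fold and at least 2.75-fold higher (adjusted p = 0.0227 and 0.0241). A dimmer Slc1a4 probe set ran the other way against memory cells (70.3 and 30.9 in activated, 50.7 and 91.4 in memory cells, log2 -0.23). Another, near or below the floor on every array, gave 0.08 from memory cells. Slc38a1 and Slc38a2, which carry small neutral amino acids with sodium, depended on the probe set. Slc38a1 was 1.64-fold above regulatory cells (4921.3 and 4645.6 against 2812.4 and 3021.6, adjusted p = 0.0401) and did not pass against memory cells (3918.9 and 2909.1, adjusted p = 0.0991). Its second probe set read 2896.5 and 2812.1 in activated cells and 743.6 to 1201.6 elsewhere (log2 1.32 and 1.85), and averaging both brought it past the threshold against memory cells (log2 0.91, adjusted p = 0.019). Slc38a2, a carrier induced by amino acid shortage in many cells, ran from 2282.6 to 3571.8 and passed in neither contrast. Its second probe set read 622.4 and 678.1 in activated cells and 1407.7 to 2727.3 elsewhere, opposite to the first. Averaging all its probe sets made the gene lower in activated cells (log2 -0.92, adjusted p = 0.0153, from memory and -0.61, adjusted p = 0.0409, from regulatory cells).

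Tfrc, the receptor for iron-loaded transferrin and a classical marker of T cell activation, read 13913.2 and 13532.5 in activated cells, 1775.5 and 1501.2 in memory cells and 1635.0 and 1555.3 in regulatory cells. It was 8.40-fold (log2 3.07, SE 0.14, adjusted p = 0.00183) and 8.60-fold higher (adjusted p = 0.00186), with no overlap. Under the 8 alternative settings that keep all 6 arrays, Tfrc stayed called in both contrasts. Calls with an array left out are not listed by gene, because the share of all genes still called is not given.

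**Figure D2:**
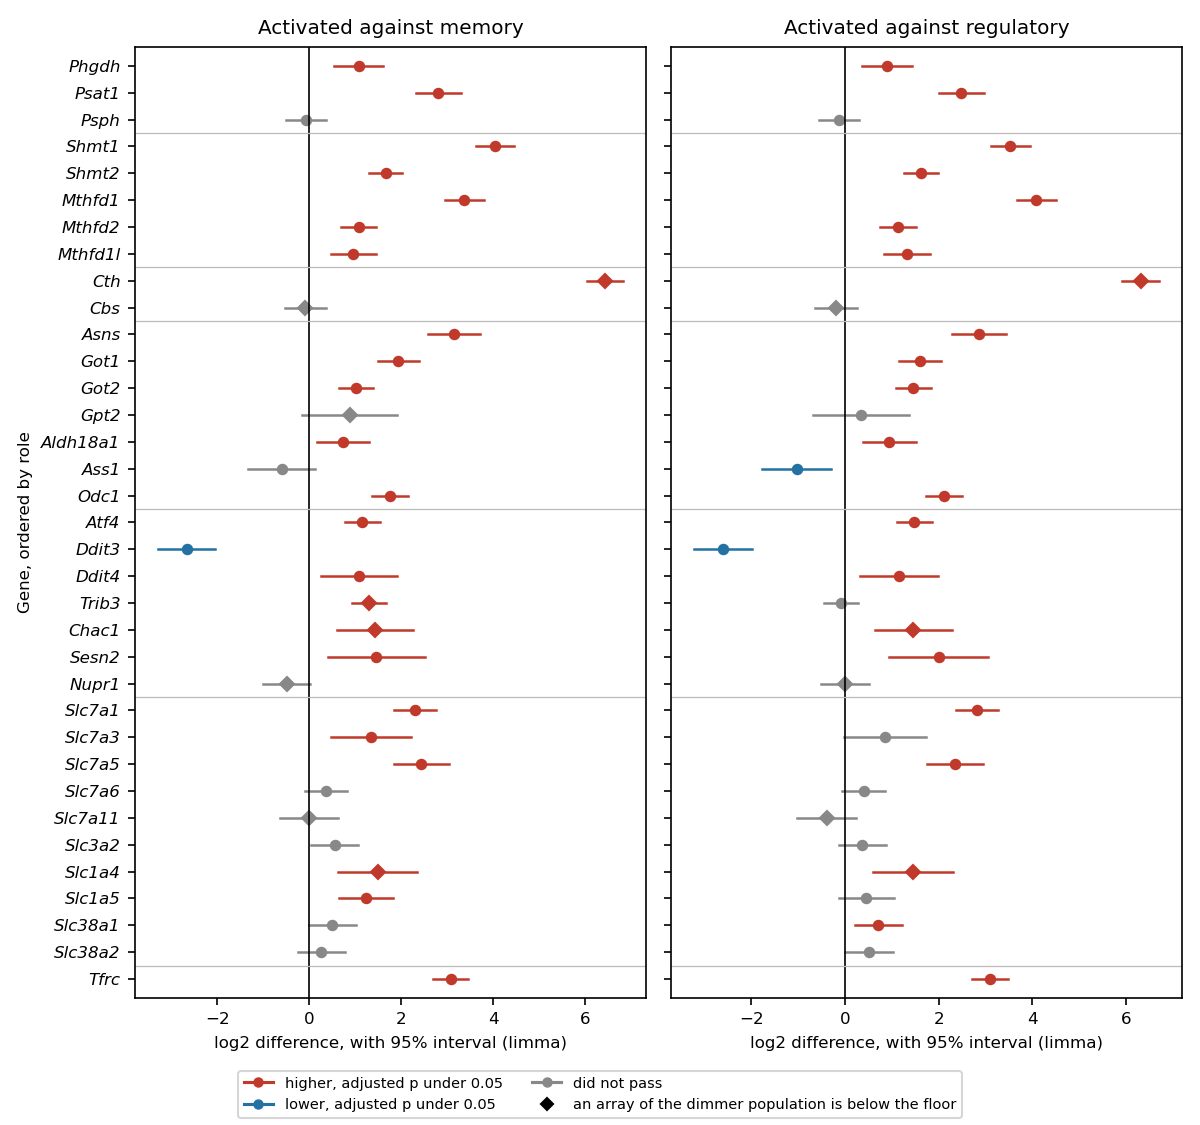
Log2 difference of activated cells from memory cells (left) and from regulatory cells (right) for the 35 genes, with 95% intervals from limma over 6 arrays. Red marks genes higher and blue genes lower at an adjusted p under 0.05, grey those that did not pass, and diamonds those with an array of the dimmer population below the floor. Cth lies farthest to the right (6.42 and 6.31) and Ddit3 farthest to the left (-2.66 and -2.60).

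The genes with a C/EBP-ATF core in the printed stretches had different calls. On the probe sets used, Asns, Got1, Chac1 and Slc1a4 were higher in activated cells in both contrasts, Trib3 in 1 of them, and Slc7a11 and Nupr1 in neither. Of the genes with an E-box, Aldh18a1 was higher in both contrasts, Ass1 was lower against regulatory cells, and Cbs and Nupr1 did not pass.

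Between regulatory and memory arrays no gene of the list passed. The regulatory against memory contrast called 0 of 35 and 0.0% of all genes (limma), while 6 of the 35 and 21.2% of all genes had an unadjusted p under 0.05. The 6 were Trib3 (log2 1.39 higher in regulatory cells, adjusted p = 0.0593), Slc1a5 (0.77, adjusted p = 0.163), Shmt1 (0.51, adjusted p = 0.182), Got2 (-0.44, adjusted p = 0.184), Slc7a1 (-0.52, adjusted p = 0.196) and Mthfd1 (-0.72, adjusted p = 0.113). Shmt1 and Mthfd1, both cytosolic folate enzymes, thus had opposite signs here. Without a genotype term Trib3 passed (adjusted p = 0.0461); its second probe set spans 53.4 to 163.2 on these 4 arrays with overlap.

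Between genotypes 1 of these genes differed 2-fold, in 1 population. In activated cells 0 of the 33 measured genes differed 2-fold between the cKO and the control array, where 0.762% of all measured genes did (0.39% higher and 0.372% lower). On the memory arrays 0 were higher and 1, Sesn2, was lower by that rule, out of 33 (5.62% of all genes higher and 3.64% lower, 9.26% in all). In regulatory cells it was 0 of 34 (3.14% of all genes higher and 2.12% lower, 5.26% in all). With 1 array per genotype these are folds between arrays and have no test. The median log2 fold of the genes was -0.09, -0.01 and -0.06 in activated, memory and regulatory cells, and the median size of the fold without its sign was 0.16, 0.32 and 0.19. Over all genes those sizes were 0.14, 0.32 and 0.22.

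Sesn2 fell from 245.5 on the memory control array to 108.6 on the memory array labelled cKO, 2.26-fold lower. Its second probe set read 112.7 and 9.8 there. In regulatory cells the first probe set was 1.55-fold lower (139.8 and 90.0) and the second went the other way (98.4 and 130.0), and in activated cells the first was 1.23-fold higher. On the same memory array Ddit4, the other mTORC1 inhibitor, was 1.77-fold higher (1614.7 and 2858.3) and Ass1 1.70-fold higher (88.1 and 149.5). The memory array labelled cKO also had the higher sum of dividing-cell markers (21125.3 against 4191.1), granulocyte markers (8049.9 against 2114.0, 7 of 7 measured) and B cell markers (3688.8 against 2619.1), and the lower sum of myeloid and dendritic markers (7489.7 against 14851.2). Their part in these folds was not tested.

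Genotype folds of genes with large population differences varied from gene to gene. Cth was 1.11-fold lower on the activated cKO array, below the floor on both memory arrays, and at 55.3 and 6.8 in regulatory cells, at least 1.16-fold lower there against the floor of 47.6. Shmt1 was 1.15-fold lower, 1.06-fold higher and 1.15-fold lower in activated, memory and regulatory cells. Mthfd1 was 1.02-fold higher on the activated cKO array, 1.09-fold higher on the memory array labelled cKO and 1.14-fold lower in regulatory cells. Tfrc was 1.03-fold, 1.18-fold and 1.05-fold lower in the same order. Wider folds were seen in Asns, 1.43-fold lower on the activated cKO array (2347.7 and 1642.6) and 1.11-fold higher and 1.07-fold lower in memory and regulatory cells, and in Slc7a5, described further on.

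Dim carriers and targets had the wider genotype folds in activated cells. Slc7a3 was 1.96-fold lower on the activated cKO array (252.6 and 128.9), just inside the 2-fold limit. Gpt2 was 1.59-fold lower there (137.4 and 86.2), Slc1a4 1.46-fold lower (188.2 and 129.3) and Chac1 1.39-fold lower (181.6 and 130.8). All 4, like Asns, were lower on the activated cKO array, while Sesn2 (1.23-fold) and Ddit3 (1.34-fold) were higher. In activated cells 24 of the 33 genes measured had a log2 fold below 0 (72.7%, against 51.0% of all genes measured). In memory cells it was 17 of 33 (51.5% against 50.7%) and in regulatory cells 20 of 34 (58.8% against 51.9%), near the share of all genes in memory cells.

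In the fit over all 3 populations 0 of 35 genes and 0.0% of all genes kept a genotype difference (limma), and 3 of 35 and 2.85% of all genes had an unadjusted p under 0.05. These were Cbs (log2 0.55 higher in cKO, with the control array below the floor in each population, adjusted p = 0.82), Trib3 (-0.36, adjusted p = 0.82) and Slc7a5 (-0.50, adjusted p = 0.82). Slc7a5 was lower on each array labelled cKO, by 1.12-fold in activated, 1.37-fold in memory and 1.84-fold in regulatory cells. The memory label is the one that Furin went against. With the genotype labels of the memory arrays exchanged, an alternative added after seeing the data, 0 genes were called and 0 of the 35 had an unadjusted p under 0.05. The 3 differences were then 0.20 for Cbs, -0.13 for Trib3 and -0.20 for Slc7a5 (limma, adjusted p = 0.955 for each). This test measures how evenly a difference repeats over populations and not the spread between mice.

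**Figure D3:**
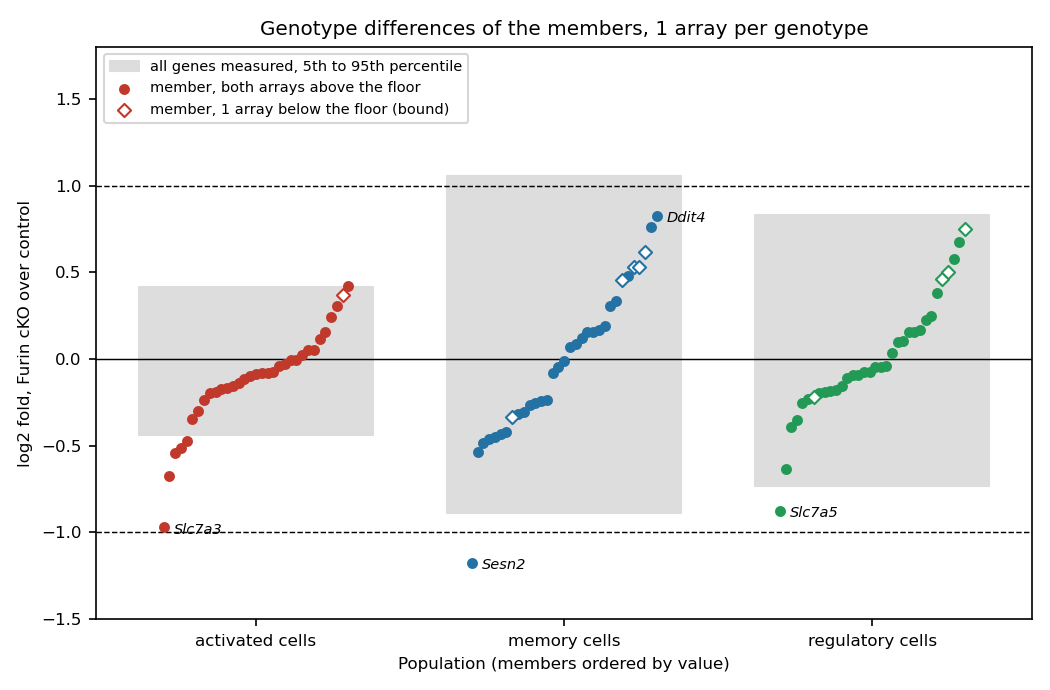
Log2 fold of the cKO over the control array for each gene measured, ordered by value within activated, memory and regulatory cells. Grey boxes span the 5th to 95th percentile of all genes measured and dashed lines mark 2-fold. Sesn2 on the memory arrays is the 1 point beyond a dashed line, at -1.18.

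Further genes of these pathways, in 8 lists holding 98 genes with a probe set, were tested the same way. Of the 96 tested, 46 were higher and 15 lower in activated than in memory cells, and 48 higher and 14 lower than in regulatory cells. Over all genes tested 17.4% were higher and 27.0% lower in the first contrast, and 18.1% and 26.5% in the second. Aminoacyl-tRNA synthetases, which charge tRNAs and include several ATF4 targets, were the most uniform: 17 of 19 were higher in each contrast and 0 were lower. Farsb had the largest rise (log2 2.02 and 2.06), from between 1608.1 and 1975.9 on the other arrays to 7173.9 and 7268.4. Vars passed in neither contrast. De novo purine synthesis followed, with 7 and 8 of 9 higher and Gart leading (log2 2.69 and 2.67).

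The folate and methionine cycle was less even, with 7 of 14 higher and 2 lower against memory cells and 8 higher and 2 lower against regulatory cells. Gcsh, of the glycine cleavage system, rose most (log2 2.59 and 2.72) and Ggh, which trims the glutamate tail of folates, fell most (-1.66 and -1.91). Other amino acid enzymes had 5 higher and 1 lower of 12 in each contrast. Bcat1, the cytosolic branched-chain aminotransferase, read 6509.6 and 6295.1 in activated cells, 121.9 and 63.6 in memory cells and 212.1 and 219.2 in regulatory cells, 72.7-fold and 29.7-fold higher (adjusted p = 0.00183 and 0.00207). Its mitochondrial relative Bcat2 fell, by 1.46 and 1.03 on the log2 scale.

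The remaining lists, iron among them, had calls in both directions. Their shares called higher ran from 12.5% to 28.6%, not far from those of all genes (17.4% and 18.1%). Of all genes 27.0% and 26.5% were lower. Regulators of the integrated stress response had 2 of 11 higher and 5 lower against memory cells, and 3 higher and 4 lower against regulatory cells. Atf3, a target of ATF4, rose most (log2 2.49 and 2.66). Cebpb, a partner of ATF4, fell most against memory cells (-3.18), and Eif2ak2, the kinase PKR, fell most against regulatory cells (-3.86). Other amino acid carriers had 4 of 16 higher with 3 and 4 lower. Slc25a13, the mitochondrial aspartate-glutamate carrier, rose most (2.62 and 2.58) and Slc36a1, a lysosomal carrier, fell most (-1.87 and -1.79). Glutamine, glutamate and glutathione genes had 2 and 1 of 8 higher, led by Gss (1.96 and 2.04), and 1 lower, Gpx4 (-0.87 and -0.92).

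Of 7 iron genes besides Tfrc, 2 were higher in each contrast and 3 and 2 were lower. Aco1, the iron regulatory protein 1, rose most (log2 1.54 and 1.74). Slc40a1, the iron exporter ferroportin, was below the floor on the activated arrays (1.6 and 0.8) and at 178.9 to 273.3 elsewhere, at least 4.95-fold and at least 4.42-fold lower. By genotype, 0 of 88 listed genes passed 2-fold in activated cells. On the memory arrays Sars and Slc38a3 were higher and Mthfd2l and Slc16a10 lower, out of 94, and in regulatory cells Eif2ak4 and Prodh were lower, out of 93. Over all genes 9.26% and 5.26% passed in these populations.

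**Figure D4:**
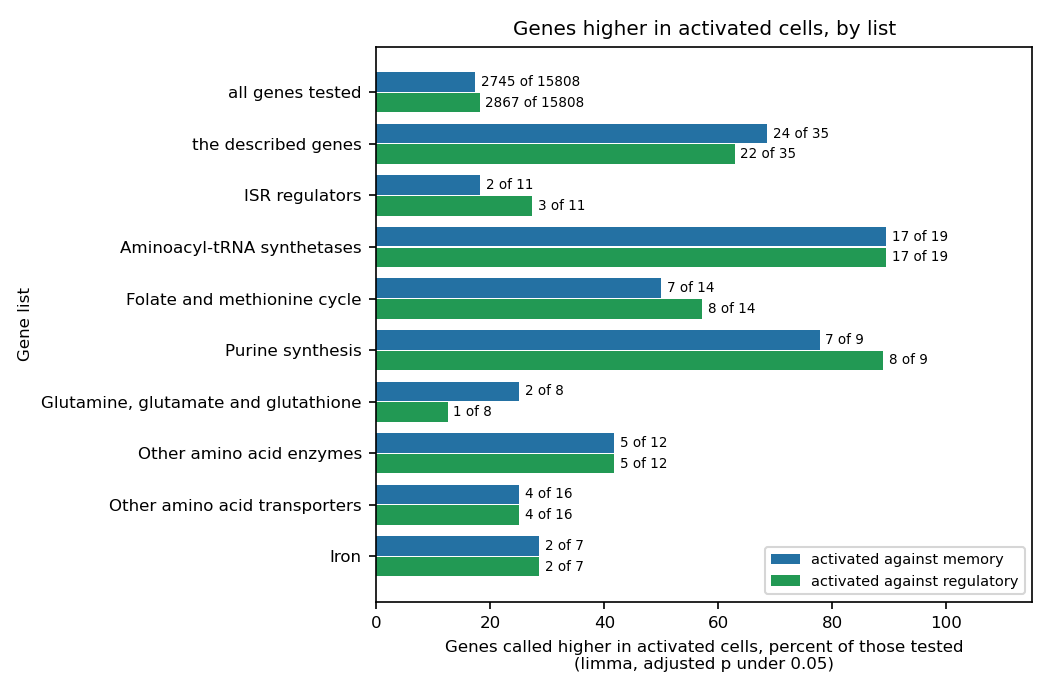
Percent of the genes of each list called higher in activated cells than in memory (blue) or regulatory cells (green), with the counts beside each bar. The 35 genes described reach 68.6% and 62.9%, the aminoacyl-tRNA synthetases 89.5% in both, and all genes tested 17.4% and 18.1%.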

How the data were processed

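The deposited values are microarray intensities (signals) on a linear scale, made from Affymetrix arrays. MAS5 produced them, per the submitters' processing notes. A version number was not given in the sources used here. Each deposited array has a mean of 500 after trimming 2% of probe sets at each end, so the arrays had been scaled before deposit. Signals below 47.6, the 40th percentile over all arrays, were raised to it, and log2 was taken. Of 45101 probe sets, 34945 carry 1 gene symbol, giving 18193 genes, each read from the probe set with the highest mean floored log2 signal. Genotype folds within a population compare 1 array with 1 and were called past 2-fold, and genes below the floor on both arrays were left out. A fold with 1 side below the floor is written as at least. Population contrasts and genotype over populations were fitted with limma 3.58.1 in R 4.3.3 (population plus genotype, 6 arrays, Benjamini-Hochberg over 15808 genes, adjusted p under 0.05), and the code was tested on simulated data. Labels do not say that arrays come from separate mice or cultures, so p-values measure only the spread between these arrays. All 36 genes of the list are named, and from each further list the genes with the largest rise and fall, the genes past the 2-fold genotype limit, and Vars, which was named after its values were seen. The genes and lists were chosen with earlier results of these data known. Alternatives were other floors (20th and 60th percentile), no floor, quantile and cyclic loess normalization, averaging a gene's probe sets, no genotype term, leaving out each array, and, added after seeing the data, picking the probe set before flooring and exchanging the genotype labels of the memory arrays.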

Additional observations from a re-analysis of the deposited data

Results flagged for a closer look

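Trib3 differed in direction between populations on the probe set that was not used for it. Its cKO array was lower than its control in activated cells (112.2 and 61.4, log2 -0.87) and higher on the memory arrays (53.4 and 124.2, log2 1.22), so the 2 genotype differences lay 2.09 apart on the log2 scale. In regulatory cells it was also higher (91.9 and 163.2, log2 0.83), 1.70 from activated cells. With 1 array per group the differences were not tested. On the probe set used, Trib3 was lower by 1.27-fold on the cKO array in activated cells and 1.31-fold in regulatory cells, and by at least 1.26-fold on the memory array labelled cKO. Furin read 2202.9 on that memory array against 647.4 in its control, so each memory direction given here rests on a doubted label and turns if the labels are exchanged.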

How the results depend on the processing

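No called gene reversed direction under any alternative. Leaving out 1 array gave 12 to 15 calls for activated against memory cells (25 with all arrays) and 0 to 19 for activated against regulatory cells (24 with all arrays). A population left with 1 array is assumed to vary like the others, with 1 residual degree of freedom. Settings that keep all 6 arrays gave 17 to 27 and 16 to 27 calls. In memory cells the 2-fold genotype count was 1, and it became 6 with the floor at the 20th percentile (Cbs, Chac1, Gpt2 and Trib3 higher, Sesn2 and Slc7a11 lower), 0 with it at the 60th, and 2 with the probe set picked before flooring (Trib3 2.33-fold higher). In regulatory cells it went from 0 to 3 at the 20th percentile (Cbs and Slc1a4 higher, Cth lower). Regulatory against memory went from 0 to 1, Trib3, without the genotype term. Averaging probe sets added Slc38a1, Slc7a6 (higher) and Slc38a2 (lower) against memory cells and Slc38a2 (lower) against regulatory cells. Exchanging the memory genotype labels left the genotype count over populations at 0. The causes were not tested, apart from a lower floor admitting dimmer signals. No paired analysis was possible because each group holds 1 array and the groups share only replicate number 1. The genotype fit over populations already compares the genotypes within each population. Signals near the floor, 8 of the 35 genes on at least 1 array, limit what can be said of dim genes.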
